A study of Homo sapiens with 9 samples.

Results

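The genes described here are the 78 mitochondrial ribosomal protein genes of the count table: every row whose Ensembl identifier maps to a protein-coding symbol made of MRPL or MRPS and a number. Of these, 49 carry MRPL symbols (large subunit) and 29 carry MRPS symbols (small subunit), out of 24542 genes and loci in the table, and all 78 passed the filter on low counts. RNA was sequenced from wild-type A2780, an established human ovarian carcinoma cell line, in 3 groups of 3 libraries. Control cells were kept in 0.5% DMSO for 96 h. The second group received 0.6 µM cisplatin (written Cispt in the labels), a platinum drug that crosslinks DNA, and the third received 5.5 µM Pt-ttpy, a platinum terpyridine complex known as a ligand of G-quadruplex DNA, each also for 96 h. The labels give both doses as the drug's own IC80, so the concentrations differ, and the vehicle of the drug-treated cells is not given in the sources used here. The stated purpose of the series is to find genes that respond to Pt-ttpy. The labels number the libraries of a group as biological replicates without saying that they came from separate cultures, and if they did not, the p-values measure only the spread between these samples.

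Mitochondria hold their own ribosome, which translates the few proteins encoded by mitochondrial DNA, all of them membrane subunits of the respiratory chain and ATP synthase. Its ribosomal RNAs are made inside the organelle, whereas every protein of both subunits is encoded in the nucleus, made in the cytosol and imported. Many of these proteins have a bacterial counterpart, and the others are particular to mitochondria. Loss of single members lowers mitochondrial translation, and inherited variants in several of them cause disease of heart, liver, muscle and brain. Symbols do not always follow structure: MRPS18A and MRPS30 sit in the large subunit (as mL66 and mL65), and MRPS36 is now known as a component of the 2-oxoglutarate dehydrogenase complex.

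Library totals ranged from 31.3 to 40.8 M counts. The libraries DMSO 2 and cisplatin 2 stood apart from the other 7: across genes, Spearman's rho between transcript GC content and the deviation from the mean was 0.52 and 0.42, whereas in the other 7 it lay between -0.34 and -0.17. Counts of calls and median changes against DMSO over all members together are therefore given with and without these libraries. Those of the subunits, of smaller sets of members and of the other gene lists are given for all 9 libraries only. Of the markers chosen for an ovarian carcinoma line, VIM stood at 4922 to 8964 CPM (counts scaled by library size), whereas PAX8, WT1, MUC16, KRT18, KRT7 and CDH1 were at 0.296 CPM or less in every library and EPCAM and KRT8 did not exceed 1.14 and 1.78 CPM. Of 11 markers of other cells, 5 to 7 had no count in a given library, among them ALB in all 9, whereas the fibroblast genes LUM and DCN were well expressed. The summed level of the 11 was 387 to 495 CPM with DMSO, 577 to 724 CPM with cisplatin and 753 to 820 CPM with Pt-ttpy. LUM and DCN passed the test as higher with both drugs (LUM by 1.22 and DCN by 0.61 on the log2 scale with Pt-ttpy), and their part in the results below was not tested.

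The 78 genes were moderately expressed in untreated cells, and no member was near the limit of detection: the lowest count of any member in any library was 280 and the highest 8694. The mean CPM in DMSO ran from 14.5 to 201 among MRPL genes, with a median of 53.6, and from 15.0 to 182 among MRPS genes, with a median of 62.9. Divided by the length of the principal transcript, so that genes can be compared, the median level in DMSO was 42.2 CPM per kilobase for MRPL genes and 40.7 CPM per kilobase for MRPS genes. Over all 9 libraries the highest level per kilobase belonged to MRPL12, the factor-recruiting stalk protein, at 157 CPM per kilobase. MRPS34 followed at 111, MRPS6 at 100.3, MRPL20 at 94.9 and MRPL4 at 93.5 CPM per kilobase. The lowest were MRPS33 at 5.46, MRPL42 at 7.05 and MRPL22 at 8.24 CPM per kilobase. The principal transcript of MRPL42 is listed as 15582 bases long and that of MRPL22 as 3176, which lowers their values. Members of one particle thus differed widely in transcript level per length, a measure that depends on the listed length.

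The start regions of the members shared short motifs. RefSeq start windows (250 bases before to 50 bases after the start, GRCh38.p14) were found for 69 of the 78 members, which gave 85 windows because some genes have several starts. On either strand, the ETS-family letters CCGGAAG were present in 33 of the 85 windows (38.8%), against 16.1% of the 15653 windows of protein-coding genes tested. The YY1 letters AAGATGGC were present in 23 windows (27.1%), against 4.52%. The NRF1 letters GCGCATGC were present in 7.06% against 4.55%, the SP motif GGGCGG in 60.0% against 65.6%, the E-box CACGTG in 10.6% against 9.18% and CCAAT in 32.9% against 34.5%. Runs of guanines spaced as in a G-quadruplex, on either strand, were present in 13 windows (15.3%), against 34.1% of the 15653 windows of protein-coding genes tested. The next 6 windows, from 70 bases before to 30 bases after the start, show the 2 motifs that set the members apart most, in capitals. They were chosen after the values were seen: the first 4 belong to members that were lower with Pt-ttpy and the last 2 to members that were not.
MRPL20 (chr1:1407264-1407363, minus strand): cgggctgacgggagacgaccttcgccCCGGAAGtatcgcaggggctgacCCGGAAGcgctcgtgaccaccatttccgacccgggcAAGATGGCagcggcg
MRPS18A (chr6:43687762-43687861, minus strand): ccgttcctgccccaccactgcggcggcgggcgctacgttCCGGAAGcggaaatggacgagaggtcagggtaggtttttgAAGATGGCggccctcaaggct
MRPS34 (chr16:1773105-1773204, minus strand): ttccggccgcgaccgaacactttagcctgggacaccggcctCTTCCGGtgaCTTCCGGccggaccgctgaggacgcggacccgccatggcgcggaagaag
MRPL27 (chr17:50373155-50373254, minus strand): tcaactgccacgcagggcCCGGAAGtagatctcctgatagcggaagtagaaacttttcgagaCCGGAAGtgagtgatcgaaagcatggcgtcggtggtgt
MRPL45 (chr17:38297098-38297197, plus strand): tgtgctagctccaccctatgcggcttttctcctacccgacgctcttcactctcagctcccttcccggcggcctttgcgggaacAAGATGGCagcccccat
MRPS27 (chr5:72320211-72320310, minus strand): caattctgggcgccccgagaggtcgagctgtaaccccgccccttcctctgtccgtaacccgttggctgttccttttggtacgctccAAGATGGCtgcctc

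In these windows the ETS letters (CTTCCGG is the same motif read on the other strand) lie before the start, and the YY1 letters lie in the 30 bases after it. The ETS letters were in 36.4% of the 33 windows of members called lower with Pt-ttpy and in 40.4% of the other 52, and the YY1 letters in 24.2% and 28.8%. The G-quadruplex pattern was in 15.2% of the windows of called members and 15.4% of the others. CCAAT was in 15 of the 33 windows (45.5%) against 13 of the 52. None of these differences was tested. A match of letters describes the window and is not a measured binding site.

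With Pt-ttpy, 26 of the 78 genes fell (16 MRPL and 10 MRPS) and none rose, by edgeR's quasi-likelihood test at an adjusted p under 0.05 over 15558 genes and loci. Across all genes tested, 6.45% were called lower and 5.59% higher, and among the 6117 genes whose expression matched the middle of the members' range, 9.99% were called lower and 5.02% higher. The median fitted log2 change was -0.35 over the 78 members, -0.35 over MRPL genes and -0.25 over MRPS genes, against 0.03 over all genes tested and -0.05 over the genes of matched expression. The members' changes ran from -0.64 to 0.32, 70 of 78 were fitted below 0, and the 26 calls lay between -0.64 and -0.32, a loss of 19.7% to 35.9% of the transcript. Without DMSO 2 and cisplatin 2 most of these falls were smaller, with MRPL4 at -0.43 and MRPS18A at -0.42. Those of MRPL3 (-0.41) and MRPL44 (-0.32) were not. In 51 members all 3 Pt-ttpy libraries lay below all 3 DMSO libraries, and in 1 (MRPL45) they lay above, where 20.6% and 20.3% of all genes separated in these ways. Because the cells were measured in bulk, fewer cells of a type and less RNA per cell cannot be told apart.

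**Figure D1:**
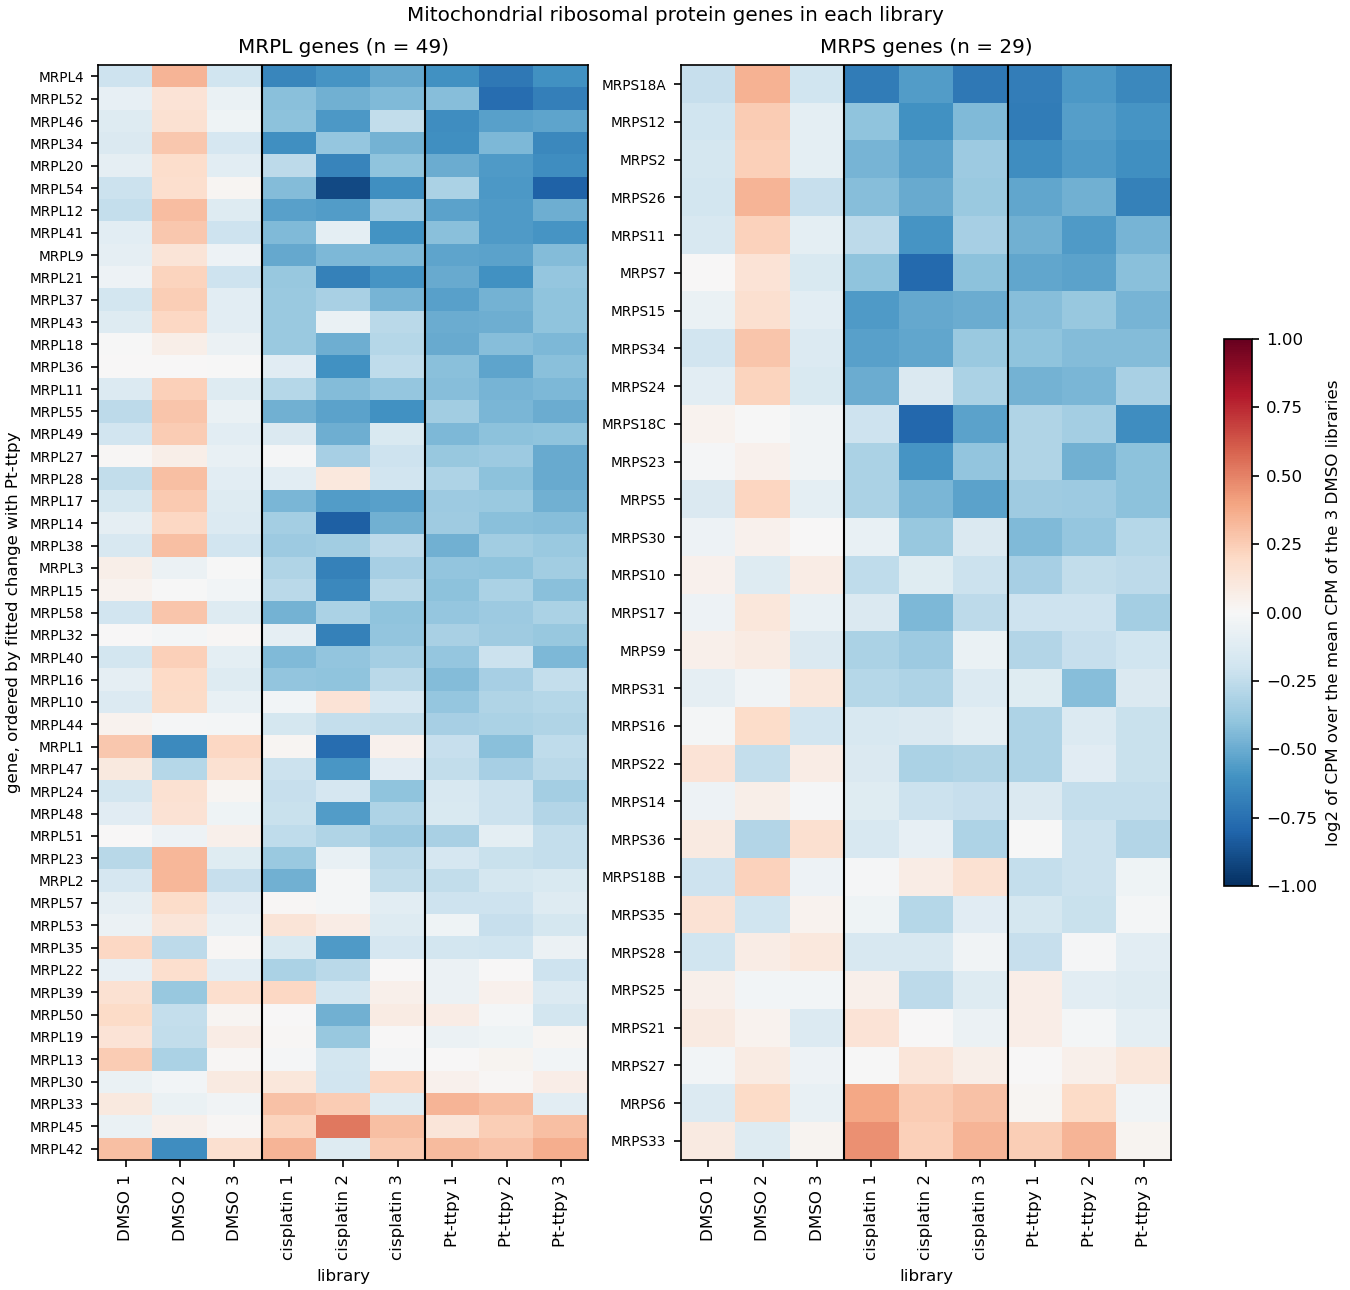
Heat map of CPM in each of the 9 libraries as log2 of the ratio to the mean of the 3 DMSO libraries, for the 49 MRPL genes (left) and the 29 MRPS genes (right), ordered by the fitted change with Pt-ttpy. Blue is lower and red higher; most rows are blue in the cisplatin and Pt-ttpy columns, and the DMSO 2 column differs from DMSO 1 and DMSO 3 in many rows.

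Among large-subunit proteins with a bacterial counterpart, MRPL4 (uL4m, ENSG00000105364, chr19:10251901-10260045 of GRCh38), which lines the polypeptide exit tunnel, had the largest fall in the fit to all 9 libraries. Its level was 152.8, 223.7 and 153.9 CPM in DMSO, 112.6, 117.5 and 123.8 CPM with cisplatin, and 116.1, 107.8 and 116.3 CPM with Pt-ttpy. All 6 drug-treated libraries lay below all DMSO libraries, and DMSO 2 lay far above its 2 replicates. The fitted log2 change with Pt-ttpy was -0.64 ± 0.14 (SE, adjusted p = 0.017), and -0.43 without DMSO 2 and cisplatin 2 (adjusted p = 1.54e-05). Without those libraries MRPL1 (-0.53), MRPL20 (-0.46) and MRPL36 (-0.45) were fitted lower than MRPL4. MRPL9 (bL9m, ENSG00000143436, chr1:151759643-151763564) had the smallest adjusted p of all members with Pt-ttpy. It stood at 106.0, 123.5 and 109.1 CPM in DMSO, 79.0, 82.7 and 82.8 CPM with cisplatin, and 78.2, 78.0 and 83.4 CPM with Pt-ttpy, a change of -0.50 ± 0.10 (adjusted p = 0.013). The groups did not overlap, and all 6 drug-treated libraries lay between 78.0 and 83.4 CPM. MRPL18 (uL18m), a protein of the central protuberance, stood at 69.4, 72.5 and 66.6 CPM in DMSO and 49.0, 51.6 and 51.0 CPM with Pt-ttpy (-0.46 ± 0.10, adjusted p = 0.017). MRPL20 (bL20m), whose bacterial counterpart helps ribosomal RNA to fold and whose start window is shown above, stood at 79.7, 95.9 and 79.0 CPM in DMSO and 60.3, 57.4 and 55.3 CPM with Pt-ttpy (-0.56 ± 0.13, adjusted p = 0.019). In both genes every treated library lay below every control.

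In the fit to all 9 libraries the factor-recruiting stalk gave a fall in 2 of its 3 proteins. MRPL12 (bL12m), which brings elongation factors to the ribosome, stood at 170.2, 248.9 and 183.1 CPM in DMSO and 138.9, 135.5 and 143.4 CPM with Pt-ttpy (-0.53 ± 0.13, adjusted p = 0.028). MRPL11 (uL11m), at the base of the stalk, stood at 95.5, 123.6 and 95.9 CPM in DMSO and 78.2, 76.0 and 77.0 CPM with Pt-ttpy (-0.45 ± 0.12, adjusted p = 0.031). MRPL10 (uL10m), which holds the bL12m copies, was fitted at -0.32 ± 0.12 without passing the test (adjusted p = 0.091), although its 3 Pt-ttpy libraries (60.6 to 65.0 CPM) lay below its DMSO libraries (72.0 to 90.3 CPM). Without DMSO 2 and cisplatin 2 MRPL10 passed as well (-0.22, edgeR adjusted p = 0.016). MRPL3 (uL3m), also of the large subunit, fell from 172 ± 6.93 to 132 ± 2.78 CPM (mean ± SD, n = 3 libraries a group, with a fitted change of -0.38 ± 0.11, adjusted p = 0.041). MRPL44, a protein with a ribonuclease III fold near the exit of the nascent peptide, stood at 64.6, 62.5 and 62.4 CPM in DMSO and at 50.2, 50.7 and 51.2 CPM with Pt-ttpy, a fall with little spread in either group (-0.32 ± 0.09, adjusted p = 0.044). MRPL22, MRPL23 and MRPL24, which form the tunnel and its rim, did not pass (-0.08, -0.21 and -0.24, adjusted p = 0.72, 0.38 and 0.22) and their groups overlapped.

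Among large-subunit proteins particular to mitochondria, MRPL52 stood at 20.5, 23.9 and 20.7 CPM in DMSO and 16.1, 12.8 and 13.5 CPM with Pt-ttpy (-0.62 ± 0.14, adjusted p = 0.018). MRPL46, of the central protuberance, stood at 25.2, 30.7 and 26.7 CPM in DMSO and 17.9, 18.9 and 19.1 CPM with Pt-ttpy (-0.56 ± 0.13, adjusted p = 0.021). MRPL41 fell as well, from 69.3 ± 12.3 to 48.2 ± 3.19 CPM (-0.52 ± 0.15, adjusted p = 0.047). MRPL58, a peptidyl-tRNA hydrolase that also rescues stalled ribosomes, was fitted at -0.35 ± 0.13 and did not pass (adjusted p = 0.09996). MRPL45, which anchors the ribosome to the inner membrane beside the tunnel exit, went the other way: its 3 Pt-ttpy libraries (96.8, 105.6 and 109.6 CPM) lay above its 3 DMSO libraries (85.1, 92.1 and 89.5 CPM), with a fitted change of 0.23 ± 0.11 that did not pass (adjusted p = 0.18). The largest positive value belonged to MRPL42, at 0.32 ± 0.20 (adjusted p = 0.31). It stood at 120.3, 63.2 and 109.0 CPM in DMSO and at 121.7, 119.1 and 125.5 CPM with Pt-ttpy, and the value without DMSO 2 and cisplatin 2 was 0.095. Of 46 members with a bacterial counterpart 15 fell (median -0.38), and of 31 members particular to mitochondria 11 fell (median -0.32).

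In the small subunit, MRPS2 (uS2m) had the smallest adjusted p. It stood at 118.9, 158.9 and 125.8 CPM in DMSO, 97.3, 92.3 and 104.4 CPM with cisplatin, and 87.6, 90.7 and 88.0 CPM with Pt-ttpy (-0.60 ± 0.12, adjusted p = 0.013). The 3 Pt-ttpy libraries lay below all other libraries. MRPS12 (uS12m), which forms part of the decoding centre, stood at 68.6, 93.9 and 73.6 CPM in DMSO and 48.3, 53.7 and 52.4 CPM with Pt-ttpy (-0.61 ± 0.13, adjusted p = 0.016). MRPS15 (uS15m, ENSG00000116898, chr1:36455718-36464437), an early binder of the small-subunit RNA, stood at 99.8, 116.5 and 97.2 CPM in DMSO, 70.6, 73.4 and 74.0 CPM with cisplatin, and 77.9, 80.3 and 75.7 CPM with Pt-ttpy (-0.42 ± 0.10, adjusted p = 0.023). Its treated libraries all lay below its controls, with cisplatin the lowest. MRPS7 (uS7m), of the head of the small subunit, fell from 146 ± 14.6 to 104 ± 4.76 CPM (-0.49 ± 0.12, adjusted p = 0.026).

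MRPS34, a small-subunit protein particular to mitochondria, fell from 139 ± 25.6 to 103 ± 1.24 CPM (-0.42 ± 0.13), and lay just inside the threshold (adjusted p = 0.048). MRPS16 (-0.22 ± 0.11, adjusted p = 0.20), MRPS22 (-0.21 ± 0.12, adjusted p = 0.28) and MRPS9 (-0.24 ± 0.11, adjusted p = 0.18) did not pass. Without DMSO 2 and cisplatin 2 MRPS22 passed (-0.32, edgeR adjusted p = 0.0043), and MRPS16 and MRPS9 did not. Next to MRPS34 on the inner side of the threshold was MRPS30 (adjusted p = 0.047), and just outside stood MRPL36 (-0.45, adjusted p = 0.051) and MRPS5 (-0.37, adjusted p = 0.056). MRPS18A, MRPS18B and MRPS18C are paralogues that hold different places in the ribosome. MRPS18A (mL66, ENSG00000096080, chr6:43671303-43687791), of the large subunit, stood at 37.4, 55.9 and 38.2 CPM in DMSO, 26.9, 29.7 and 26.7 CPM with cisplatin, and 27.1, 29.4 and 28.0 CPM with Pt-ttpy (-0.64 ± 0.15, adjusted p = 0.024). MRPS18C (bS18m) was fitted at -0.41 ± 0.16 (adjusted p = 0.10) and MRPS18B (mS40) at -0.16 ± 0.12 (adjusted p = 0.42), and the difference between paralogues was not tested. Sorted by structure and not by symbol, 18 of 51 large-subunit genes and 8 of 26 small-subunit genes fell, with medians of -0.37 and -0.24.

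The summed level of the 78 transcripts was lower in every treated library than in any control. It was 5136, 5888 and 5116 CPM in DMSO, 4581, 4296 and 4563 CPM with cisplatin, and 4321, 4360 and 4371 CPM with Pt-ttpy. As a share of all counts the members held 0.501% to 0.552% in DMSO, 0.455% to 0.464% with cisplatin and 0.434% to 0.442% with Pt-ttpy, and the groups did not overlap. The ratio of summed MRPL to summed MRPS levels stayed between 1.53 and 1.61 in all 9 libraries, 1.58 to 1.61 in DMSO, 1.54 to 1.55 with cisplatin and 1.53 to 1.56 with Pt-ttpy. The count of falls with Pt-ttpy depended on the 3 treated libraries: leaving out any one of them left 1, 0 and 0 calls (without replicates 1, 2 and 3), with 38, 42 and 38 members still at an unadjusted p under 0.05 against 44 in the full data, and the calls over all genes shrank too, from 1004 lower and 870 higher to at most 87 lower and 212 higher. Leaving out DMSO 2 or DMSO 3 left 17 calls, and scaling by upper quartiles left 15, all lower, while over all genes that scaling called 666 lower and 1050 higher.

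**Figure D2:**
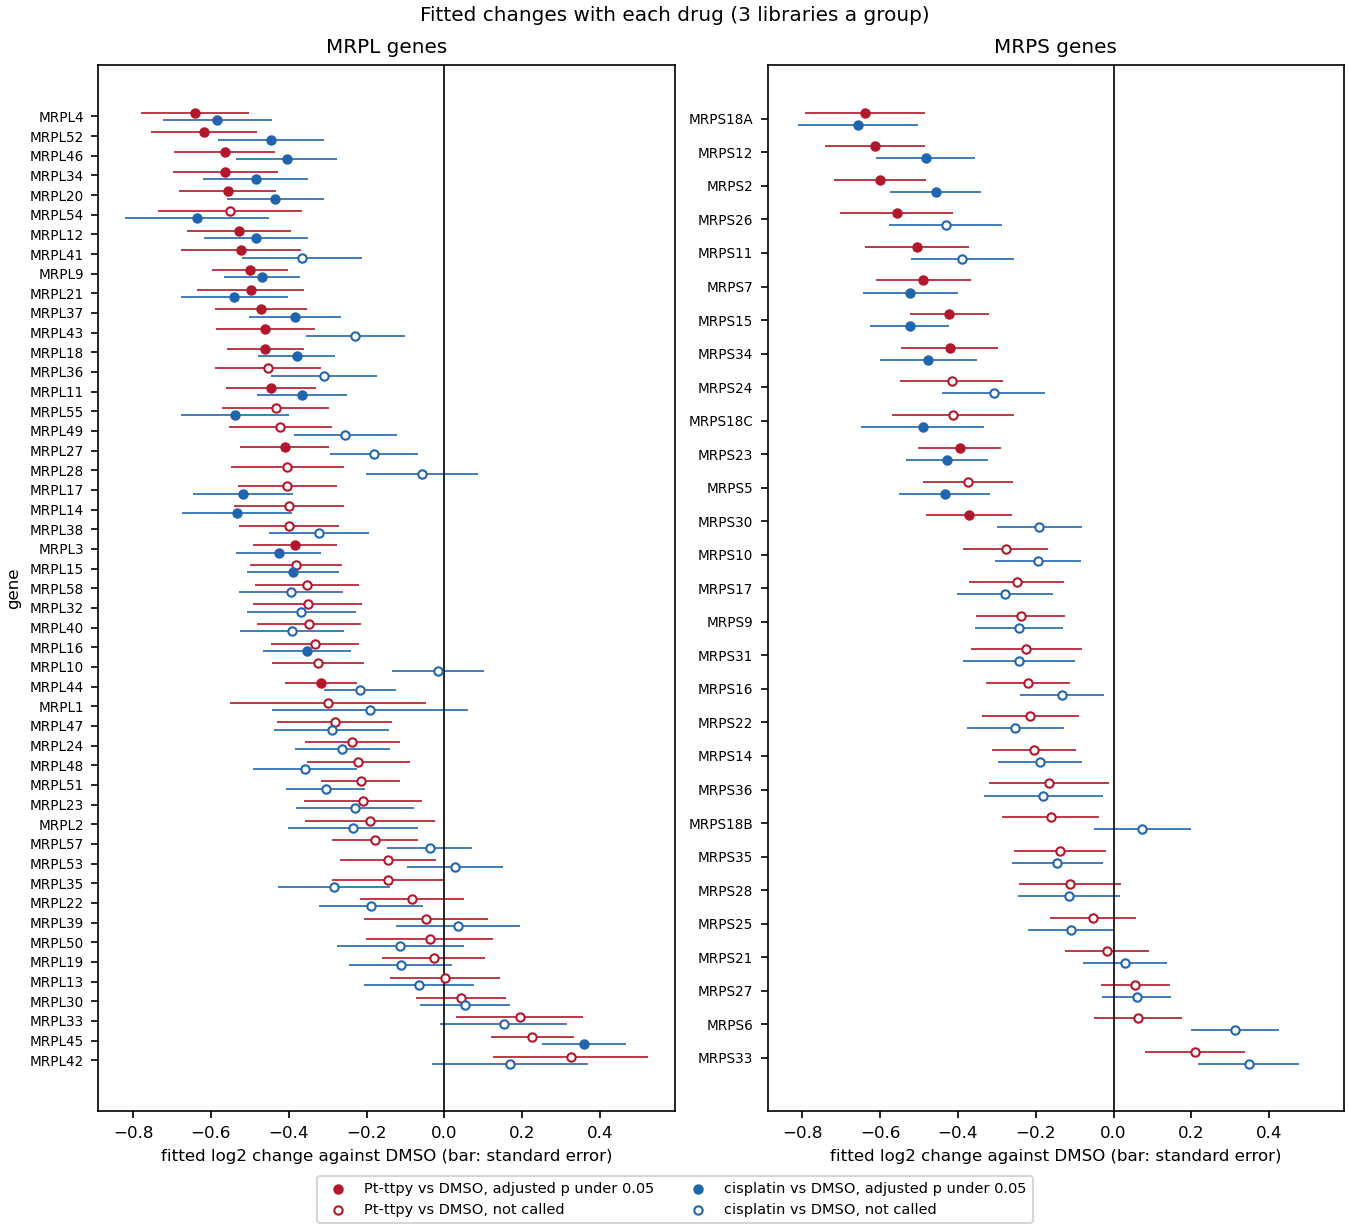
Fitted log2 change against DMSO for each gene, Pt-ttpy in red and cisplatin in blue, with the standard error as a bar and filled points at an adjusted p under 0.05 (3 libraries a group, the same DMSO libraries for both drugs). With Pt-ttpy 26 points are filled, all below 0, and with cisplatin 27 filled points lie below 0 and 1, MRPL45, above.

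With cisplatin, 27 of the 78 genes fell (18 MRPL and 9 MRPS) and 1 rose. Across all genes tested, 9.78% were called lower and 10.7% higher, and among genes of matched expression 14.2% were called lower and 8.06% higher. The median fitted change was -0.29 over the members, -0.31 over MRPL genes and -0.24 over MRPS genes, against 0.01 over all genes and -0.10 over genes of matched expression. The same DMSO libraries serve both drugs, so that agreement between the drugs is in part set by the controls, and each drug is described on its own. In 41 members the cisplatin libraries lay below all DMSO libraries and in 3 above (19.4% and 18.6% of all genes separated in these ways).

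The smallest adjusted p values with cisplatin belonged to MRPS15 (-0.52 ± 0.10, adjusted p = 0.0060), MRPL9 (-0.47 ± 0.10, adjusted p = 0.0083), MRPS7 (-0.52 ± 0.12, adjusted p = 0.014) and MRPS18A (-0.66 ± 0.15, adjusted p = 0.014), whose values in each library are given above for all but MRPS7. MRPS7 stood at 146.3, 160.7 and 131.5 CPM in DMSO and at 110.4, 85.1 and 109.8 CPM with cisplatin. MRPS18A had the largest fall of all members with this drug, a loss of 36.6% of the transcript. Its fitted log2 change was -0.49 without DMSO 2 and cisplatin 2. MRPL4 was fitted at -0.58 ± 0.14 (adjusted p = 0.015), MRPL12 at -0.48 ± 0.13 (adjusted p = 0.026), MRPS12 at -0.48 ± 0.13 (adjusted p = 0.022) and MRPS2 at -0.46 ± 0.12 (adjusted p = 0.020). MRPL18, MRPL20, MRPL52, MRPL46, MRPL11 and MRPL3 fell by 0.38, 0.43, 0.45, 0.41, 0.37 and 0.43 on the log2 scale. Of these, MRPL52 and MRPL46 did not pass without DMSO 2 and cisplatin 2. MRPS34 (-0.48) and MRPS18C (-0.49) also fell with cisplatin. MRPL10 stood at 77.8, 86.9 and 70.4 CPM with cisplatin and at 72.0, 90.3 and 75.4 CPM in DMSO, so that the groups overlapped (-0.02 ± 0.12, adjusted p = 0.94). The threshold ran between MRPL16 (-0.35, adjusted p = 0.046) and MRPL46 (adjusted p = 0.046) on the inner side and MRPL51 (-0.30, adjusted p = 0.052) and MRPS26 (-0.43, adjusted p = 0.055) on the outer.

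MRPL45 was the only member that rose. It stood at 85.1, 92.1 and 89.5 CPM in DMSO and at 103.9, 128.4 and 109.6 CPM with cisplatin (0.36 ± 0.11, adjusted p = 0.035), a gain of 28.3%. All cisplatin libraries lay above all DMSO libraries, with cisplatin 2 the highest, and the call was kept in 2 of 9 fits that each left out 1 library (fitted values 0.26 to 0.42). MRPS33 (0.35 ± 0.13, adjusted p = 0.076) and MRPS6 (0.31 ± 0.11, adjusted p = 0.070) also had all cisplatin libraries above all DMSO libraries and did not pass. Of 46 members with a bacterial counterpart 20 fell (median -0.31), and of 31 members particular to mitochondria 7 fell and 1 rose (median -0.25). Scaled by upper quartiles, 16 members were called lower and 3 higher (MRPL45, MRPS33 and MRPS6). Fitted to the 6 libraries of this contrast alone, without the spread seen in the Pt-ttpy libraries, 2 members passed. Leaving out single libraries of the 9 gave 11 to 24 calls, with 11 without cisplatin 2, 16 without cisplatin 3 and 18 without Pt-ttpy 2. The 7 members called in all 9 such fits were MRPL17, MRPL4, MRPL9, MRPS15, MRPS18A, MRPS23 and MRPS7, all lower. Calls over all genes in these alternative fits with cisplatin are not set beside the counts here. The counts therefore show only how the members' calls depend on the fit.

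Between the drugs, which were used at different doses, none of the 78 genes passed the test, by edgeR's quasi-likelihood test or by DESeq2 or limma-voom. Few genes of any kind did: 0.456% of all genes tested were called lower with Pt-ttpy and 0.0578% higher (71 and 9 genes). At an unadjusted p under 0.05 there were 3 members, with values below 0: MRPL28 (-0.35 ± 0.14, edgeR adjusted p = 0.56), MRPL10 (-0.31 ± 0.12, adjusted p = 0.49) and MRPS6 (-0.25 ± 0.11, adjusted p = 0.61). MRPL28 (bL28m) stood at 60.6, 88.7 and 66.9 CPM in DMSO, 66.9, 77.6 and 63.0 CPM with cisplatin, and 58.2, 54.2 and 50.9 CPM with Pt-ttpy. In these 3 genes the libraries of the 2 drugs did not overlap. An unadjusted threshold of 0.05 lets some genes pass without any difference, and the share of all genes passing it is not given here. The count of 3 is therefore not read as a result about the members. Over the 78 members the Pt-ttpy libraries lay below all cisplatin libraries in 9 and above in 1, MRPS15, where 10.1% and 10.5% of all genes separated in these ways. The largest positive difference, 0.15 ± 0.20, was that of MRPL42 (adjusted p = 0.88).

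The 95% confidence interval of the difference between drugs held 0 in 75 of 78 members, and in 72 it lay within 0.5 on either side on the log2 scale. For MRPL4 it ran from -0.36 to 0.25, for MRPS15 from -0.12 to 0.32 and for MRPL45 from -0.37 to 0.10. Without DMSO 2 and cisplatin 2, 5 members were lower with Pt-ttpy than with cisplatin and none higher (all genes 2.83% and 2.37%), namely MRPL27, MRPL28, MRPL49, MRPS30 and MRPS6.

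The GC content of a member's transcript was related to its change. The longest coding transcripts of the members reached up to 71.9% GC, with a median of 48.9%, close to the 49.4% of all genes tested. With Pt-ttpy, 4 of the 26 members with the lowest GC fell (at or under 46.2%, median change -0.19), 8 of the middle 26 (median -0.33) and 14 of the 26 with the highest GC (above 52.9%, median -0.46). Over all genes tested with GC in the same ranges, 2.01%, 9.68% and 11.6% were called lower. With cisplatin the counts of falls were 3, 10 and 14 of 26, against 5.93%, 16.7% and 13.6% of all genes. Across the 78 members Spearman's rho between GC and the change with Pt-ttpy was -0.65, against -0.22 across 13383 genes. These are correlations across genes that share the same libraries, and genes are not independent replicates.

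Part of this relation moved with DMSO 2 and cisplatin 2. Of the 3 DMSO libraries DMSO 2 was the highest for 53 members and the lowest for 17. Members of high GC stood, on average, 0.26 above the DMSO mean in DMSO 2 on the log2 scale and 0.15 and 0.11 below it in DMSO 1 and DMSO 3, whereas members of low GC stood 0.12 below the mean in DMSO 2. Without these libraries rho with Pt-ttpy was -0.30 over the members and 0.05 over all genes, and with cisplatin it was -0.29 over the members against -0.52 in the full data. In a fit with each library corrected for GC, rho over the members was -0.22 with Pt-ttpy but -0.48 with cisplatin. Between the drugs, rho over the members was -0.24 in the full data, 0.47 with the GC correction and -0.0050 without DMSO 2 and cisplatin 2. The falls themselves were more numerous without them: with Pt-ttpy 48 members fell and 1, MRPL45, rose (17.4% of all genes called lower and 15.8% higher), all 26 earlier calls were kept, and the median change was -0.26. With cisplatin 34 fell and 3 rose (MRPL45, MRPS33 and MRPS6), where 16.4% of all genes were called lower and 13.9% higher, and the median was -0.21. Of the 28 earlier calls with cisplatin 25 were kept. MRPL46, MRPL52 and MRPL54 did not pass in this fit (edgeR adjusted p = 0.11, 0.053 and 0.079). In 59 members all 3 Pt-ttpy libraries lay below both DMSO 1 and DMSO 3, as they did in 28.2% of all genes tested. In 55 members cisplatin 1 and cisplatin 3 lay below both, as they did in 33.6% of all genes tested. The fit corrected for GC called 39 members lower and none higher with Pt-ttpy (all genes 11.3% and 11.9%) and 38 lower and 3 higher with cisplatin (all genes 16.2% and 17.0%).

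**Figure D3:**
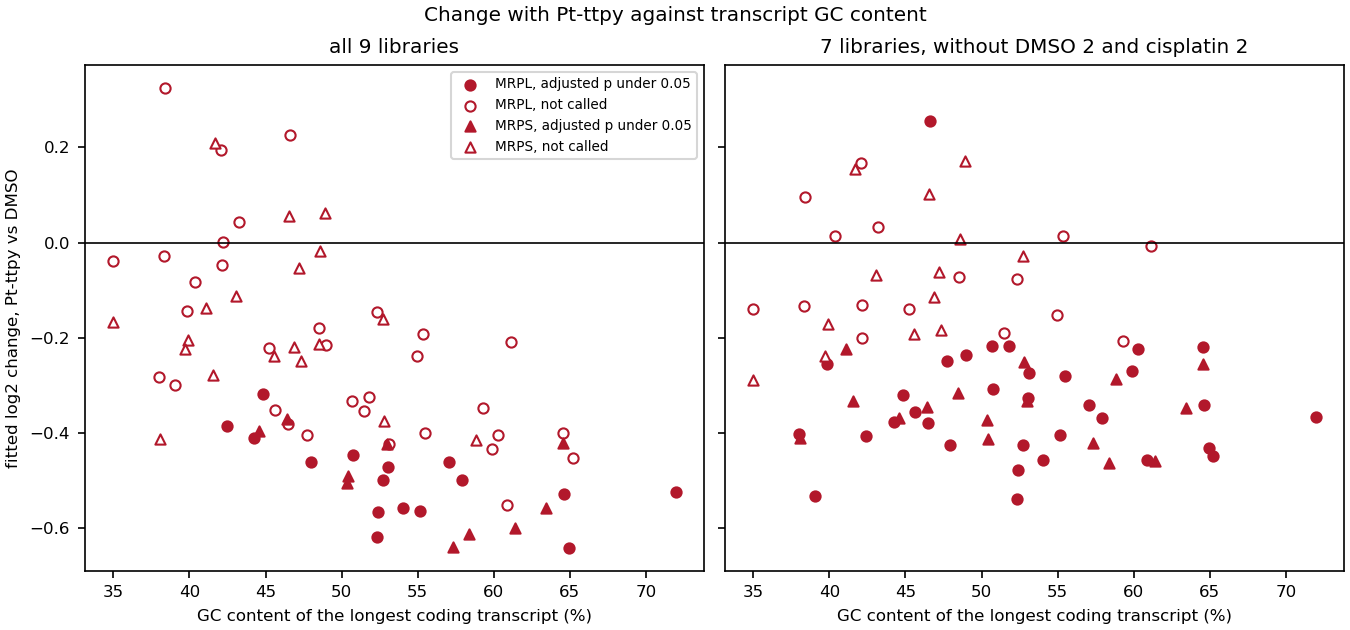
Fitted log2 change with Pt-ttpy (vertical axis) against transcript GC content in percent (horizontal axis) for the 78 genes, circles for MRPL and triangles for MRPS, filled at an adjusted p under 0.05. In the fit to all 9 libraries (left) the points slope down with GC (rho -0.65), and in the fit without DMSO 2 and cisplatin 2 (right) the slope is weaker (rho -0.30) while more points are filled.

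The other genes of mitochondrial translation, from lists chosen with earlier results of these data known, were read only in the fit to all 9 libraries. Over all genes tested in that fit, 6.45% were called lower with Pt-ttpy and 9.78% with cisplatin. Of 5 mitoribosomal proteins that lack an MRP symbol, AURKAIP1 and GADD45GIP1 fell with both drugs. AURKAIP1, a small-subunit protein, stood at 149.8, 193.6 and 148.5 CPM in DMSO and 112.9, 114.2 and 116.4 CPM with Pt-ttpy (-0.52 ± 0.12, adjusted p = 0.019). DAP3, PTCD3 and CHCHD1, also of the small subunit, were fitted at 0.06, 0.12 and -0.03 and did not pass. Of 28 genes for ribosome assembly and ribosomal RNA modification, 8 fell with Pt-ttpy (median -0.29) and 6 with cisplatin (median -0.17), and none rose. MRM2, a methyltransferase of the large ribosomal RNA, fell by 0.50 with Pt-ttpy (adjusted p = 0.015) and MALSU1, an assembly factor of the large subunit, by 0.53 with cisplatin (adjusted p = 0.0096). Of 14 translation factors 3 fell with each drug (medians -0.35 and -0.36): the elongation factors TUFM and TSFM, and TACO1, an activator of cytochrome oxidase subunit I translation. TUFM stood at 447.4, 653.1 and 481.9 CPM in DMSO, 381.8, 403.0 and 375.1 CPM with cisplatin, and 367.8, 360.0 and 388.3 CPM with Pt-ttpy. Over 17 mitochondrial aminoacyl-tRNA synthetases the median change was -0.20 with Pt-ttpy and -0.13 with cisplatin.

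Genes of the cytosolic ribosome were counted in the same way. Of 79 cytosolic ribosomal protein genes 1 fell and 3 rose with Pt-ttpy (median 0.03), and none fell and 15 rose with cisplatin (median 0.13), the latter including RPL22, RPL7 and RPL34. Over all genes tested, 5.59% were called higher with Pt-ttpy and 10.7% with cisplatin. The summed share of these 79 genes in all counts was 4.59%, 5.77% and 4.43% in cisplatin 1, 2 and 3. It was 4.32% to 4.57% with Pt-ttpy, and the highest DMSO library, DMSO 2, stood at 4.41%. The rise with cisplatin was thus largest in cisplatin 2, which stood apart in GC, and small in cisplatin 3 against DMSO 2. The difference between the lists was not tested. The 13 protein genes of mitochondrial DNA, whose messages the mitochondrial ribosome translates, had medians of 0.53 and 0.39, and none passed with either drug by edgeR's test. Their share of all counts varied within groups, from 0.756% in cisplatin 2 to 4.21% in cisplatin 1 and from 1.95% to 4.18% with Pt-ttpy, against 1.75% to 1.89% in DMSO. Of 11 tested regulators of nuclear mitochondrial genes none passed with Pt-ttpy (median -0.21), and ESRRA, NRF1 and PPARGC1B fell with cisplatin (by 0.42, 0.38 and 0.60). YY1, whose motif is shown in the start windows above, stood at 207 to 223 CPM in DMSO and 217 to 229 CPM with Pt-ttpy (0.05, adjusted p = 0.72). GABPA, an ETS factor, was fitted at 0.03 (adjusted p = 0.96), and its DMSO libraries ran from 26.6 CPM in DMSO 2 to 56.8 CPM.

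**Figure D4:**
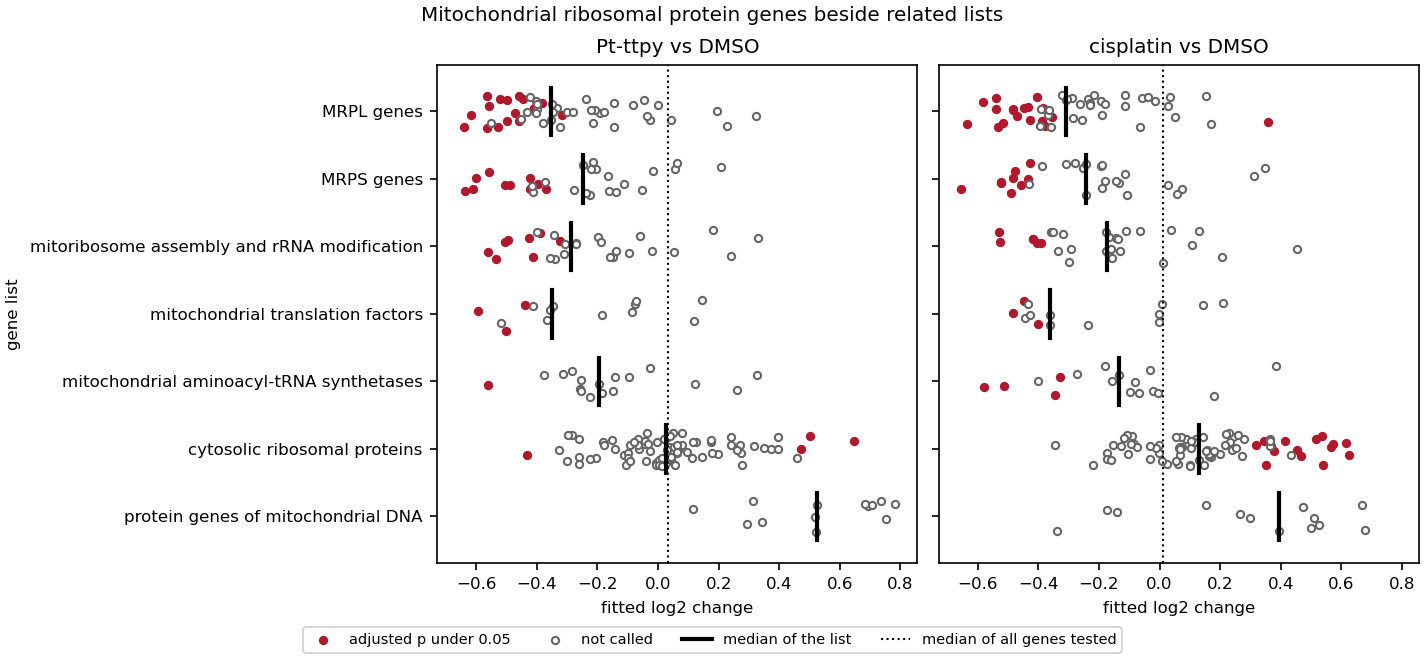
Fitted log2 changes of single genes by list, Pt-ttpy against DMSO (left) and cisplatin against DMSO (right), with red points at an adjusted p under 0.05, a bar at the median of each list and a dotted line at the median of all genes tested. The MRPL and MRPS medians lie left of the dotted line with both drugs (-0.35 and -0.25, then -0.31 and -0.24), whereas that of the 79 cytosolic ribosomal proteins lies at 0.03 and 0.13.

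Overlapping genes could add reads to some members, since the strandedness of the counting is not given in the sources used here. Exons of 34 members share positions with another gene of the table, and of the 44 others 15 fell with Pt-ttpy (median -0.34) and 15 fell and 1 rose with cisplatin (median -0.30). MRPS18C shares 40.2% of its exon positions with ABRAXAS1, which rose with both drugs (by 1.26 with Pt-ttpy), MRPS6 shares 6.4% with SLC5A3, which rose by 0.83, and MRPS18A shares 47.0% with RSPH9, a gene at 3.63 CPM. MRPL12 shares 68.2% of its exon positions with a readthrough gene that had no counts in any library. Processed copies named after the gene exist for 34 members, among which 7 fell with Pt-ttpy and 9 fell and 1 rose with cisplatin, and reads of these 34 could be split between the gene and its copies.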

How the data were processed

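The authors deposited raw counts per gene for the 9 libraries. Total RNA was purified on columns and made into mRNA libraries, per the labels' protocols. The build is GRCh38, per the submitters' processing notes, and no aligner, counter or strandedness is given in the sources used here. Symbols came from a separate list of gene names, or from GENCODE 29 where that list had none. Transcript lengths and GC content came from GENCODE 29, and start windows from RefSeq (GRCh38.p14). The 4568 loci named newGene were kept.

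Counts were fitted with edgeR 4.0.16 in R 4.3.3 (filterByExpr with a minimum count of 10, TMM factors, glmQLFit with robust estimation, glmQLFTest) over all 9 libraries, 1 mean per group, and p-values were Benjamini-Hochberg adjusted over 15558 genes and loci, with calls under 0.05. CPM values use the TMM-scaled library sizes. Fitted log2 changes carry a prior count of 0.125, and their standard errors are the change divided by the root of the F statistic. Alternatives used limma 3.58.1, DESeq2 1.42.0, other scalings, no filter, a replicate block, a lowess correction for GC (span 0.3) and left-out libraries. The script was tested on simulated counts. Depths of 31.3 to 40.8 M counts gave at least 280 counts for each member in each library, so that the spread between libraries sets the precision.

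The members and all lists were chosen with earlier results of these data known. Genes named with values were the called members with the smallest adjusted p in each contrast (6 large and 4 small with Pt-ttpy, 4 with cisplatin), any called higher, the largest fall and rise, those at the threshold, and members of set roles in the ribosome. Others were named after their values were seen. The calls of single mitochondrial aminoacyl-tRNA synthetases, with either drug, are not reported here.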

Additional observations from a re-analysis of the deposited data

How the results depend on the processing

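With Pt-ttpy the count of 26 members called against DMSO was 15 with upper-quartile factors and 49 without DMSO 2 and cisplatin 2, and it ran from 0 to 38 in the 9 fits that each left out 1 library. With cisplatin the count of 28 was 2 in a fit to the 6 libraries of that contrast and 11 to 24 in the fits without 1 library. Between the drugs it was 0 in each of these fits except that without DMSO 2 and cisplatin 2, which called 5. The remaining alternatives (DESeq2 size factors, library totals, no filter on low counts, no robust estimation, DESeq2's Wald test, limma-voom, the GC correction and the replicate block, and, for the drug not named above, upper-quartile factors, the 6 libraries of the contrast or the fit without DMSO 2 and cisplatin 2) kept each count within 1.5 times the full fit: 19 to 39 with Pt-ttpy, 19 to 41 with cisplatin and 0 between the drugs. No called member named in the text changed sign in the alternatives run. With upper-quartile factors the fit tested the same genes, and the cause of the smaller count was not tested.

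With the replicate number as a block, 34 members were called with Pt-ttpy, 32 with cisplatin and 0 between the drugs. Calls over all genes with this block are not set beside these counts, nor are those of most alternatives listed above. The counts show only how the members' calls depend on the fit. Deviations of same-numbered libraries correlated between -0.04 and 0.22. Between DMSO and cisplatin the same-numbered pairs stood at 0.10, 0.22 and 0.08, and the differently numbered pairs ran from -0.14 to 0.06. With Pt-ttpy the same-numbered pairs lay between -0.04 and 0.04 and the differently numbered ones between -0.07 and 0.07. The main fit did not pair libraries by number, and whether equal numbers mark a shared batch was not tested. No member's call with Pt-ttpy was kept in all 9 fits without 1 library. Depth did not limit the members, whose lowest count was 280, and the number of libraries sets the width of the intervals.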
